A study of Stenocereus queretaroensis with 6 samples.

Results

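The genes described here encode the enzymes that make and remove trehalose 6-phosphate and the subunits of the sugar-sensing kinases SnRK1 and TOR. They were chosen by name, with earlier results of these data known. A row of the deposited table was taken where the description of its best hit in the Swiss-Prot protein database named trehalose, a catalytic or regulatory subunit of SNF1-related protein kinase, KIN10 or KIN11, the kinase TOR, or the regulatory-associated protein of TOR (RAPTOR). This rule found 157 of 170970 assembled transcript clusters, and these fall on 31 Swiss-Prot proteins, called hits below. There were 32 clusters of trehalose-phosphate synthases (TPS), 58 of trehalose-phosphate phosphatases (TPP), 31 of SnRK1 subunits and 34 of TOR or RAPTOR, and the other 2 had hits to bacterial trehalose proteins.

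*Stenocereus queretaroensis* is a columnar cactus, and its RNA came here from cells dividing in liquid suspension. Both groups were kept on MS medium, a mineral medium for plant cells. They differed in the sucrose added, 3% in 3 libraries and 8% in 3 libraries. No label gives a line, a passage, a time in the medium or the number of cultures behind the 3 libraries. The p-values therefore rest on the spread between these samples alone, which may be technical.

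Plant cells make trehalose 6-phosphate from UDP-glucose and glucose 6-phosphate with TPS, and TPP turns it into trehalose, which trehalase splits into glucose. In plants the amount of trehalose 6-phosphate follows that of sucrose, and it inhibits SnRK1, the plant relative of yeast SNF1 and animal AMPK, which is a complex of a catalytic alpha subunit with beta and gamma-type subunits that is active in starved cells. TOR, which works in a complex with RAPTOR and LST8, is active when sugar and amino acids are plentiful and drives protein synthesis and growth.

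The libraries held 35476032 to 41147265 expected counts each. The first principal component held 76.3% of the variance and separated the media, while replicate 1 at 3% sucrose stood apart on the next component, of 6.9%. Clusters with an Arabidopsis hit held 56.2 to 58.4% of the counts on clusters with any hit, and clusters with an *Escherichia* or *Shigella* hit held 0.0862 to 0.106%. Tubulin summed to 5018 to 5436 CPM (counts scaled by TMM factors to a common library size) at 3% sucrose and to 1470 to 1606 CPM at 8%. Chlorophyll a-b binding proteins summed to 881 to 920 CPM and to 43.1 to 44.8 CPM, and Rubisco small chain to 4.32 to 4.96 CPM and to 0.362 to 0.519 CPM. Cellulose synthase summed to 935 to 1086 CPM at 3% and to 337 to 364 CPM at 8%. The 4 plant markers were thus all present and all lower at 8% sucrose, and the part of this shift in the results was not tested. In these bulk samples, fewer cells of a type and less RNA per cell cannot be told apart.

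Of the 157 clusters, 102 had enough counts to be tested. In edgeR's quasi-likelihood test with Benjamini-Hochberg adjustment over all 85038 tested clusters, at a threshold of 0.05, 32 of them were higher at 8% sucrose, 25 were lower and 45 were not called. The share called among all tested clusters was 54.6%, with 29.1% higher and 25.6% lower, so the members as a whole stood near the background. The median log2 fold change of the tested members was 0.18, against 0.19 for all tested clusters. In 38 members every 8% library lay above every 3% library and in 29 below, against 36.6% and 31.0% of all tested clusters, 67.6% together. The other 55 members had at most 95 counts over the 6 libraries, and 2 of them had none. A cluster can pass the count filter through the medium in which it is high alone, so counts of called clusters describe the tested members and not the full list.

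The 4 classes differed in which way their tested clusters lay. Of 25 tested TPS clusters, 8 were higher and 6 lower, with a median log2 fold change of 0.05. Of 26 tested TPP clusters, 14 were higher and 2 lower, with a median of 2.21. Of 25 tested SnRK1 clusters, 4 were higher and 13 lower, with a median of -1.68. Of 26 tested TOR and RAPTOR clusters, 6 were higher and 4 lower, with a median of -0.20. The tested TPP clusters thus leaned to 8% sucrose and the tested SnRK1 clusters to 3%. In both other classes higher and lower clusters were closer in number. Clusters of 1 hit need not be separate genes: of the 14 higher TPP clusters, 7 had the hit TPP D and 4 the hit TPP A. Of the 13 lower SnRK1 clusters, 6 had the gamma-1-like hit. In addition, 6 tested TPP clusters had no count at 3%, so they passed the count filter through 8% alone. All 7 tested TPP D clusters, some of them among those 6, also passed it through 8%. On the SnRK1 side, the 6 gamma-1-like clusters and Cluster-2051.4689 of the PV42a hit passed it through 3%, and 2 of them had no count at 8%. This selection enters both medians and both counts, so the direction of these clusters adds no support to either lean.

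**Figure D1:**
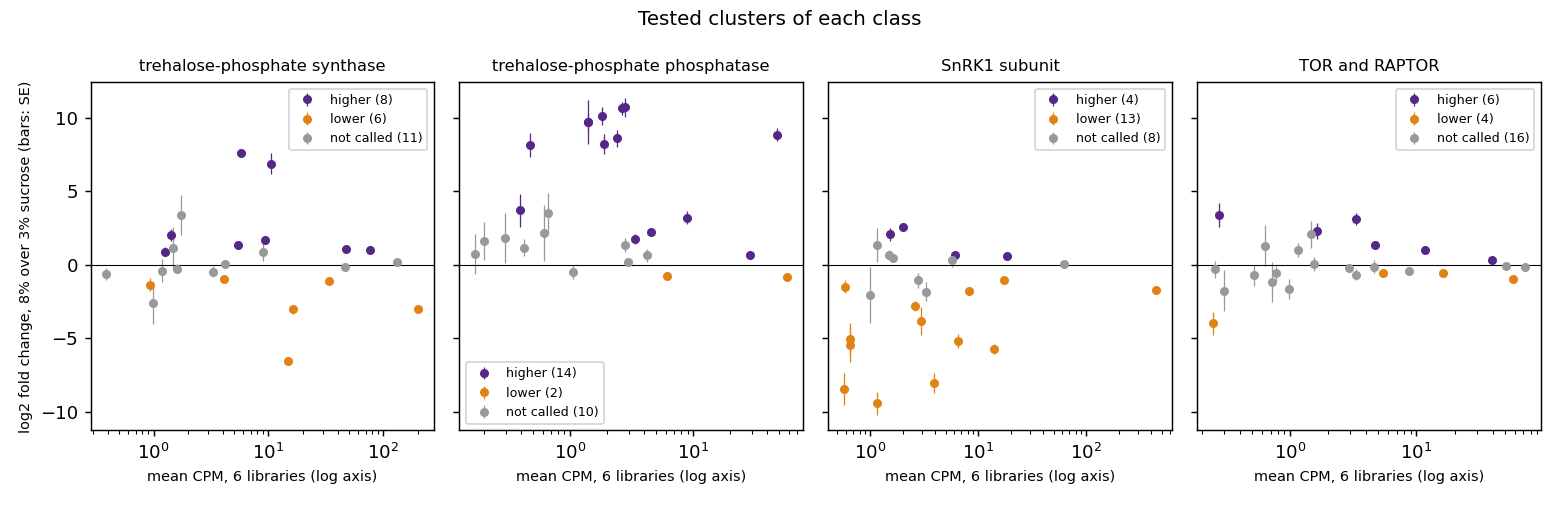
Each point is a tested cluster, placed by its mean CPM over the 6 libraries (log axis) and its log2 fold change of 8% over 3% sucrose, with the SE as a bar. Purple points were called higher, orange points lower and grey points were not called; among phosphatases 14 of 26 tested clusters were higher, and among SnRK1 subunits 13 of 25 were lower.

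Several clusters share a hit, and reads of 1 gene, its alleles or close copies can be divided between them, which leaves the change of any 1 cluster uncertain. Counts were therefore also summed over all clusters of a hit and tested across all hits with the same scaling. Of 13194 hits tested, 80.0% were called, 29.8% higher and 50.2% lower, with a median log2 fold change of -0.32. Of the 31 member hits, 24 were tested, 9 were higher, 8 were lower and 7 were not called. When the scaling factors were recomputed on the hits alone, the log2 fold changes of the hits rose by a median of 0.35, and the calls over all hits became 39.9% higher and 39.7% lower. For the hits named below, the value with these factors is given where it changes a call or a direction. Each log2 fold change is 8% over 3% sucrose with its SE, and each adjusted p is from the edgeR test over all hits, or over all clusters where a cluster is named. Each mean carries the SD of its 3 libraries.

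The synthases fall into 2 classes in plants. Class I, TPS1, makes trehalose 6-phosphate in Arabidopsis, and the class II proteins carry a synthase-like and a phosphatase-like domain, have little or no proven synthase activity and are mostly held to act in regulation. Of the 21 class II clusters here 15 carried both annotated domains, as did 6 of the 10 TPS1 clusters, whereas 55 of the 56 TPP clusters with a plant hit carried a phosphatase domain alone. The deposited KEGG labels also named every TPS cluster a synthase and all 56 plant TPP clusters a phosphatase.

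TPS1 rose. Its summed level was 14.9, 14.8 and 13.6 CPM at 3% sucrose and 60.6, 46.3 and 37.4 CPM at 8%. All 3 libraries at 8% lay above all 3 at 3%, and they were also farther from each other. The log2 fold change was 1.73 ± 0.16 (adjusted p = 7.92e-06), from a mean of 14.5 ± 0.732 to 48.1 ± 11.7 CPM.

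Most of that gain lay in clusters that were almost silent at 3% sucrose. Cluster-2051.70231 stood at 0.0553 ± 0.00331 CPM at 3% and 11.5 ± 1.77 CPM at 8% (log2 fold change 7.61 ± 0.25, adjusted p = 2.00e-06). Cluster-2051.36829, whose match to TPS1 was weak by E-value (4.1e-24), stood at 0.324, 0.0523 and 0.165 CPM at 3% and at 33.2, 20.1 and 9.52 CPM at 8%. It held the largest share of TPS1 counts at 8% and most of the spread between those libraries. Without it the other 9 clusters summed to 14.3 ± 0.731 CPM at 3% and 27.2 ± 0.833 CPM at 8%, and the media still did not overlap.

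The most abundant synthase was TPS9, a class II protein, and it fell. Its libraries held 580.0, 650.8 and 621.6 CPM at 3% sucrose and 259.1, 288.6 and 264.3 CPM at 8%, so the media were well apart. The log2 fold change was -1.19 ± 0.06 (adjusted p = 2.01e-07). The fall came largely from Cluster-2051.37010, which held 57.8% of the TPS9 counts at 3% and 16.5% at 8%, and went from 357 ± 32.3 to 44.7 ± 3.37 CPM (log2 fold change -3.00 ± 0.09, adjusted p = 1.61e-06). Its other 8 clusters summed to 260.6 ± 4 CPM at 3% and 226 ± 12.5 CPM at 8%. Among these, Cluster-2051.73103, at 124 ± 1.08 and 138.5 ± 7.73 CPM, was not called, and Cluster-2051.73105 rose from 4.42 ± 0.749 to 14.4 ± 0.858 CPM. The TPS9 clusters therefore did not move as 1 unit.

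TPS7, another class II protein, rose. It held 87.0, 89.4 and 84.6 CPM at 3% and 172.5, 188.6 and 171.9 CPM at 8% sucrose. The log2 fold change was 1.03 ± 0.06 (adjusted p = 2.43e-07). Both abundant TPS7 clusters moved alike, Cluster-2051.79371 by 1.02 ± 0.06 and Cluster-2051.77605 by 1.07 ± 0.10 on the log2 scale.

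TPS5 fell to a small fraction of its level. Its libraries stood at 30.7, 32.7 and 31.4 CPM at 3% sucrose and at 2.15, 1.86 and 2.66 CPM at 8%, with a log2 fold change of -3.83 ± 0.12 (adjusted p = 7.89e-09). One cluster, Cluster-2051.1225, carried this, at 29.3 ± 0.951 and 0.315 ± 0.135 CPM, while the other 4 summed to 2.33 ± 0.346 and 1.91 ± 0.478 CPM and overlapped between the media. TPS10 and TPS11, low in both media, rose. TPS10 went from 0.565 ± 0.154 to 2.29 ± 0.859 CPM (log2 fold change 2.01 ± 0.38, adjusted p = 0.00106). TPS11 went from 1.24 ± 0.289 to 5.45 ± 0.891 CPM (log2 fold change 2.13 ± 0.23, adjusted p = 2.65e-05). All 6 tested synthase hits were thus called, 4 higher and 2 lower, where 80.0% of all tested hits were called. Class II members moved in both directions.

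The phosphatases, which remove trehalose 6-phosphate, showed the widest change among the members. TPP D was almost absent at 3% sucrose, at 0.618, 0.105 and 0.0823 CPM, and reached 138.6, 124.0 and 103.7 CPM at 8%. Every library at 8% lay far above every library at 3%. The log2 fold change was 8.87 ± 0.31 (adjusted p = 1.62e-08), and the highest of the 3% libraries was replicate 1, without which it was 10.25. Of its 9 clusters, 7 were tested and all 7 were called higher. These 7 passed the count filter through the 8% libraries, so their common direction adds no support. The main one, Cluster-2051.86335, went from 0.209 ± 0.201 to 95.0 ± 20.0 CPM. The other 8 clusters summed to 0.0588 ± 0.102 CPM at 3% and 27.1 ± 2.69 CPM at 8%. Of these, 5 had no count at 3%, and against a floor of 3 counts per library they were at least 5.02-fold, 33.7-fold, 44-fold, 64-fold and 67.2-fold higher at 8% sucrose, the first of them a cluster too low to be tested. These bounds cover counting error only.

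TPP A, the most abundant phosphatase at 3% sucrose, was not called. It held 120.7, 109.8 and 111.8 CPM at 3% and 129.3, 114.2 and 95.5 CPM at 8%, so the media overlapped, and the log2 fold change was -0.01 ± 0.10 (adjusted p = 0.911). With scaling factors recomputed on the hits it was 0.34 (adjusted p = 0.0139). The steady sum hid opposite changes among its clusters, of which 4 were higher and 2 lower. Cluster-2051.58391 fell from 74.5 ± 3.31 to 41.1 ± 4.5 CPM (log2 fold change -0.86 ± 0.09, adjusted p = 0.000337). Cluster-2051.58388 rose from 1.76 ± 0.975 to 16.1 ± 4.35 CPM (log2 fold change 3.20 ± 0.45, adjusted p = 0.00118). Cluster-2051.58392 was at 22.5 ± 4.49 and 34.9 ± 8.17 CPM, with an adjusted p of 0.0351 that became 0.0705 to 0.148 without replicate 2 or 3 at 3% or replicate 1 or 2 at 8%.

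TPP F rose, from 6.68, 5.62 and 5.95 CPM at 3% sucrose to 25.0, 17.6 and 14.7 CPM at 8%, with a log2 fold change of 1.65 ± 0.19 (adjusted p = 3.93e-05). TPP B had no count at 3% and 0.932, 1.18 and 0.750 CPM at 8%, at least 11.5-fold higher. The rice-type TPP 7 also had no count at 3%, and 0.518, 0.711 and 0.517 CPM at 8%, at least 7.01-fold higher. Both were called, but both were low even at 8% sucrose, as were TPP J and TPP G, which were not called. TPP J was at 1.03, 0.131 and 0.219 CPM and at 2.59, 1.56 and 0.595 CPM, and was not called (log2 fold change 1.79 ± 0.78, adjusted p = 0.0593). It was called higher without 3% replicate 1 (adjusted p = 0.00269) or 8% replicate 3 (0.0251), with a replicate block (0.0136), in DESeq2 (0.0176), with library totals (0.0478) and with factors recomputed on hits (0.0358). TPP H, rice-type TPP 6 and the bacterial-type phosphatase were not tested. Of the 7 tested phosphatase hits, 4 were higher, or 6 with factors recomputed on hits, and none was lower. Among all tested hits 29.8% were higher and 50.2% lower, or 39.9% and 39.7% with those factors. TPP D, TPP B, TPP 7 and TPP J passed the count filter through the 8% libraries, so their direction adds no support to this count.

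**Figure D2:**
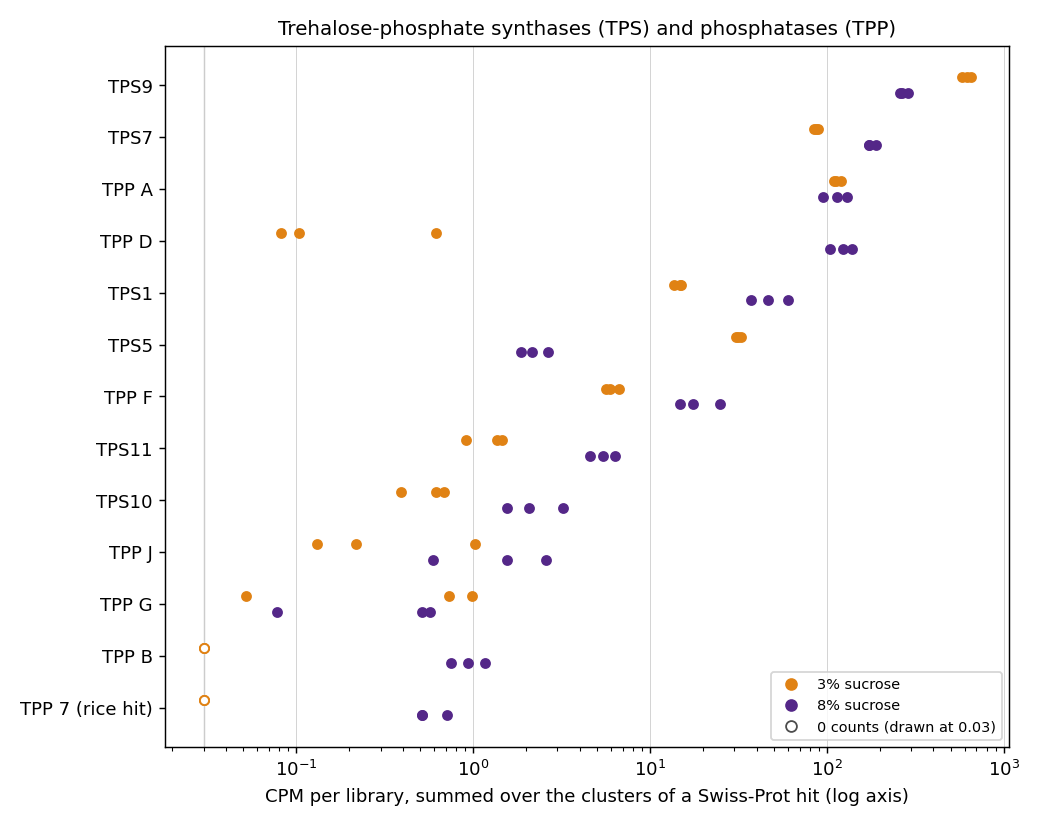
Summed CPM in each library for every tested synthase and phosphatase hit on a log axis, orange for 3% and purple for 8% sucrose, with open circles at 0.03 for libraries with no count. TPP D sits at 0.0823 to 0.618 CPM at 3% and at 103.7 to 138.6 CPM at 8%, while TPP A overlaps between the media.

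To compare levels between genes, CPM were divided by cluster length in kilobases and summed. A gene assembled as several short clusters weighs more in such a sum than a gene assembled whole, so levels and shares compare genes only roughly. Synthases stood at 252.1 ± 12.5 CPM per kb at 3% sucrose and at 194.4 ± 9.37 at 8%, and phosphatases at 51.7 ± 2.91 and 145.6 ± 22.5. The ratio of synthase to phosphatase level was 4.37, 5.38 and 4.93 in the 3% libraries and 1.16, 1.39 and 1.52 in the 8% libraries. On the log2 scale its mean was 2.29 ± 0.151 and 0.43 ± 0.199, a difference of -1.86, and the media did not overlap. This ratio is formed within a library, so library scaling does not enter it, and it is given with no test.

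Both sides of that ratio changed in makeup. TPP A held 92.7% ± 1.2 of the phosphatase level at 3% and 32.4% ± 0.35 at 8%, whereas TPP D went from 0.352% ± 0.38 to 60% ± 0.74. Among synthases the TPS9 share was 85.4% ± 0.6 and 64.6% ± 2.1, that of TPS7 8.3% ± 0.28 and 21.9% ± 0.9, and that of TPS1 1.81% ± 0.27 and 10.9% ± 3.5. Set against the phosphatases, class II went from a log2 ratio of 2.26 ± 0.154 at 3% to 0.26 ± 0.256 at 8%. For TPS1 the direction depended on Cluster-2051.36829, the cluster of weak match. The log2 ratio of TPS1 to phosphatase level was -3.51 ± 0.141 at 3% and -2.82 ± 0.258 at 8% with it, and -3.55 ± 0.146 and -4.02 ± 0.236 without it, a setting added after the values were seen. The TPS1 level itself was 4.44 ± 0.506 and 8.93 ± 0.275 CPM per kb without it.

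**Figure D3:**
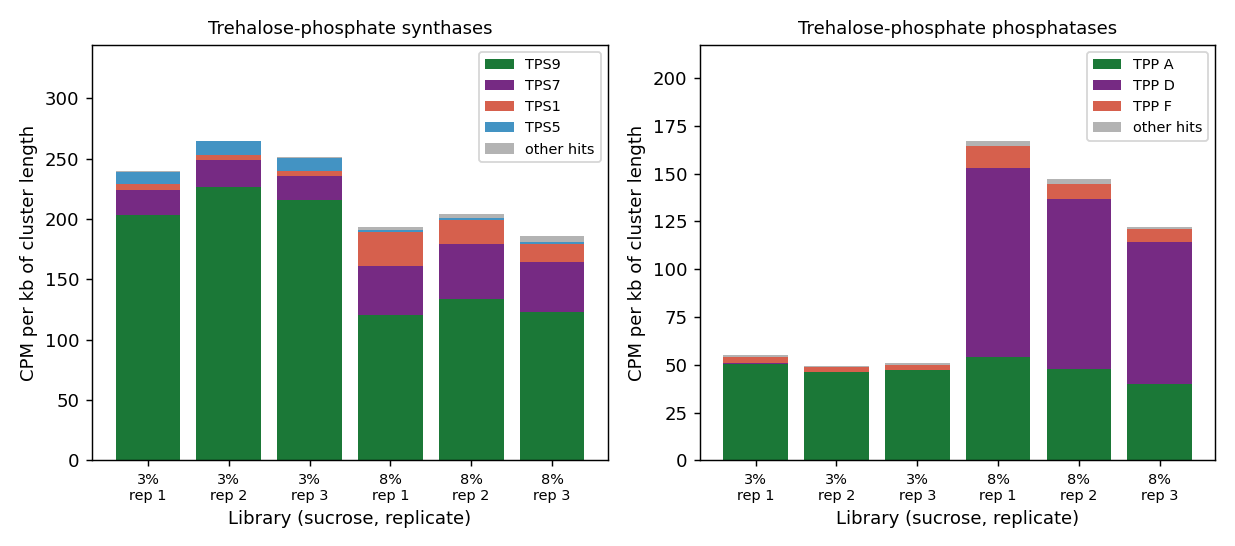
Stacked bars give the level in each library in CPM per kb of cluster length, for synthases on the left and phosphatases on the right, coloured by hit. The synthase bars are mostly TPS9 in every library, and the phosphatase bars are mostly TPP A at 3% sucrose and mostly TPP D at 8%.

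The catalytic subunit of SnRK1 was not called. All 3 of its clusters had KIN10 as best hit, and none had KIN11. Their sum was 62.6, 65.2 and 59.9 CPM at 3% sucrose and 63.0, 75.8 and 63.0 CPM at 8%, with a log2 fold change of 0.10 ± 0.08 (adjusted p = 0.259). The higher mean at 8% sucrose came from 1 library, replicate 2. The change was called higher with library totals in place of TMM factors, at 0.26 (adjusted p = 0.00853), and with factors recomputed on hits, at 0.45 (adjusted p = 0.000357), so its call depends on the scaling.

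The regulatory beta subunits, which anchor the complex and help choose its place and targets, split. Beta-1 fell from 14.4, 13.8 and 13.3 CPM at 3% sucrose to 5.36, 5.17 and 5.22 CPM at 8% (log2 fold change -1.40 ± 0.09, adjusted p = 7.62e-07). Beta-2 fell from 23.4, 21.7 and 24.5 CPM to 11.2, 11.3 and 11.9 CPM (log2 fold change -1.02 ± 0.08, adjusted p = 1.90e-06). Beta-3, a short plant form that lacks the carbohydrate-binding domain of the others, rose from 5.59, 5.83 and 6.28 CPM to 15.7, 12.3 and 12.2 CPM (log2 fold change 1.18 ± 0.13, adjusted p = 2.38e-05). In none of the 3 did the media overlap, and all 3 tested beta-3 clusters were called higher. Beta-3 had the lowest level of the 3 at 3% sucrose per length, 1.33% ± 0.063 of all SnRK1 subunit level, and the highest at 8%, 6.16% ± 1.3.

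The largest amounts lay in hits named gamma subunits, a type that binds nucleotides in animals and yeast. Whether these proteins are part of the SnRK1 complex in these cells was not tested. Gamma-1 was the most abundant hit named as a SnRK1 subunit in both media and fell, from 710.8, 708.2 and 723.5 CPM at 3% sucrose to 227.8, 250.6 and 256.1 CPM at 8%. The log2 fold change was -1.54 ± 0.06 (adjusted p = 1.90e-08). Nearly all of it was Cluster-2051.75789, at 672.4 ± 8.71 and 210.4 ± 9.63 CPM, and the other 5 clusters summed to 41.8 ± 10.8 and 34.4 ± 6.03 CPM and overlapped. These 5 moved in both directions. Cluster-2051.79569 was lower, at 12.67 ± 2.94 and 3.696 ± 0.627 CPM (adjusted p = 0.000776). So was Cluster-2051.79570, at 5.519 ± 2.08 and 0.3881 ± 0.376 CPM (adjusted p = 0.0138). Cluster-2051.75790 was higher, at 14.7 ± 3.9 and 22.2 ± 1.77 CPM (adjusted p = 0.0328), a call lost when any of 4 libraries was left out (0.0908 to 0.109 without 3% replicate 1 or 2 or 8% replicate 2 or 3).

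The gamma-1-like and PV42a subunits, relatives of gamma-1, fell to a small fraction of their level at 8% sucrose. Gamma-1-like stood at 47.6, 44.0 and 46.9 CPM at 3% and at 0.647, 1.23 and 0.854 CPM at 8%, with a log2 fold change of -5.67 ± 0.15 (adjusted p = 3.68e-09). Of its clusters 6 were tested and all 6 were called lower. These 6 passed the count filter through the 3% libraries, so their common direction adds no support. Of them, Cluster-2051.11236 and Cluster-2051.7708 had no count at 8%, at least 29.1-fold and 14.5-fold lower. PV42a went from 8.41, 8.34 and 7.10 CPM at 3% to 0, 0.164 and 0.104 CPM at 8% (log2 fold change -6.44 ± 0.44, adjusted p = 9.86e-07). Of the 7 tested SnRK1 hits, 1 was higher and 5 were lower, against 29.8% and 50.2% of all tested hits. The same 5 were lower with factors recomputed on hits, against 39.7% of all hits. PV42a passed the count filter through the 3% libraries, so its direction adds no support to this count.

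The kinase TOR was not called. Its 4 clusters, of which 3 were tested, summed to 74.7, 101.0 and 80.8 CPM at 3% sucrose and to 69.5, 75.3 and 79.6 CPM at 8%, so the media overlapped and replicate 2 at 3% stood highest. The log2 fold change was -0.19 ± 0.11 (adjusted p = 0.129). It was -0.34 (adjusted p = 0.0192) without replicate 1 at 3% sucrose, -0.25 (adjusted p = 0.0284) in DESeq2 and 0.16 (adjusted p = 0.187) with factors recomputed on hits. Most of the counts lay in Cluster-2051.69026, at 76.6 ± 13.5 and 67.6 ± 7.5 CPM. The other tested ones, Cluster-2051.76957 at 4.83 ± 2.14 and 4.40 ± 1.92 CPM and Cluster-2051.69022 at 4.12 ± 1.8 and 2.57 ± 0.568 CPM, were not called either, although the latter was without replicate 2 at 3% sucrose (lower, adjusted p = 0.0425).

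RAPTOR, which brings substrates to TOR, changed little in sum and in both directions by cluster. The Arabidopsis RAPTOR1 hit held 206.1, 222.9 and 216.3 CPM at 3% sucrose and 199.7, 184.0 and 196.0 CPM at 8%. All 3 libraries at 8% lay below those at 3%, and the log2 fold change was -0.15 ± 0.06 (adjusted p = 0.029). The call was lost without 8% replicate 2 (adjusted p = 0.106) or 8% replicate 3 (adjusted p = 0.0595), and with library totals the change was 0.00 (adjusted p = 0.967). With factors recomputed on hits it turned to 0.20 (adjusted p = 0.00966). Within it, Cluster-2051.59398 fell from 77.2 ± 6.47 to 39.8 ± 4.26 CPM (log2 fold change -0.96 ± 0.10, adjusted p = 0.000306), Cluster-2051.107012 was not called at 52.3 ± 0.801 and 49.4 ± 0.467 CPM, and Cluster-2051.59411 rose from 0.704 ± 0.197 to 5.99 ± 2.51 CPM (log2 fold change 3.09 ± 0.41, adjusted p = 0.000919). Cluster-2051.59406 rose from 35.1 ± 0.404 to 44.4 ± 1.08 CPM (log2 fold change 0.34 ± 0.06, adjusted p = 0.00238). Without Cluster-2051.59398 the other 17 clusters of the hit summed to 137.8 ± 4.69 CPM at 3% and 153.4 ± 8.08 CPM at 8%. The rice-type RAPTOR1 and RAPTOR2 hits were not called, at -0.22 ± 0.15 (adjusted p = 0.21) and -1.09 ± 0.61 (adjusted p = 0.13) on the log2 scale, and the former turned to 0.14 (adjusted p = 0.446) with factors recomputed on hits. Without 8% replicate 3 rice-type RAPTOR1 was called lower, at -0.37 (adjusted p = 0.0353), and without 8% replicate 2 RAPTOR2 was, at -2.06 (adjusted p = 0.0118).

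**Figure D4:**
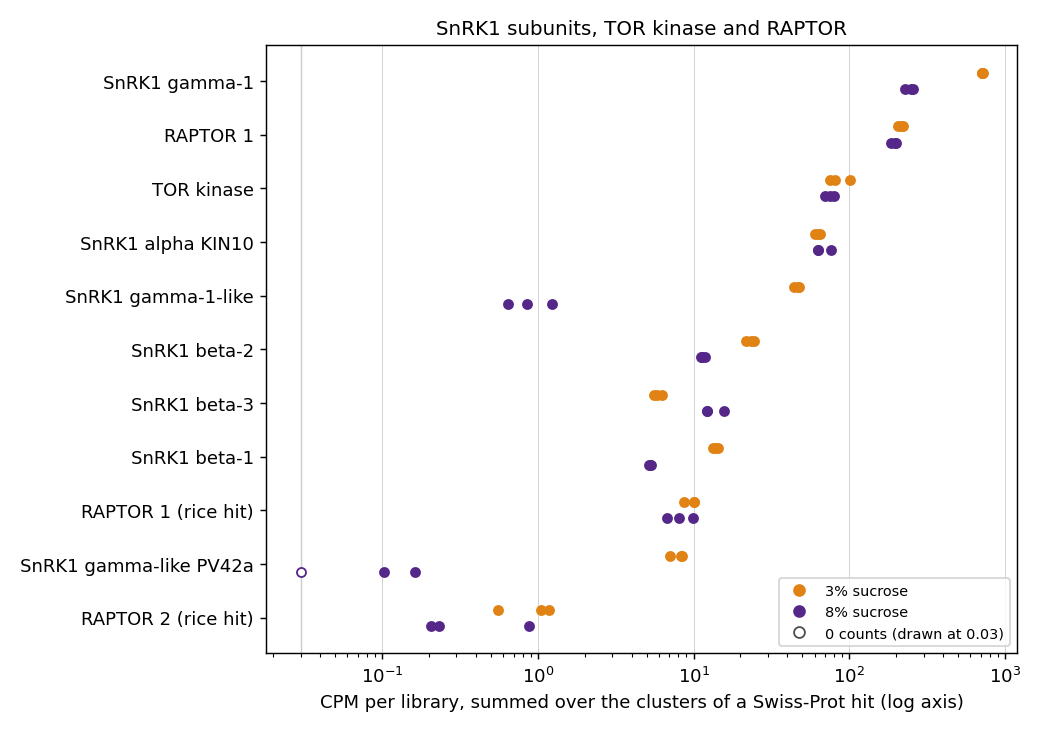
Summed CPM in each library for every tested SnRK1, TOR and RAPTOR hit on a log axis, orange for 3% and purple for 8% sucrose, with open circles at 0.03 for libraries with no count. KIN10 and TOR lie close in both media, gamma-1 drops from 708.2 to 723.5 CPM at 3% to 227.8 to 256.1 CPM at 8%, and beta-3 rises while beta-1 and beta-2 fall.

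Set side by side per length, SnRK1 subunits stood at 388.4 ± 3.3 CPM per kb at 3% sucrose and 170.6 ± 8.45 at 8%, and TOR with RAPTOR at 110.7 ± 8.07 and 93.0 ± 5.92. Their ratio was 3.79, 3.26 and 3.52 in the 3% libraries and 1.73, 2.03 and 1.76 in the 8% libraries. The mean log2 ratio was 1.81 ± 0.108 and 0.88 ± 0.127, a difference of -0.94 with no overlap between the media, given with no test. The clusters named gamma subunits accounted for most of the SnRK1 level, at 328.3 ± 4.22 and 109.8 ± 8.09 CPM per kb. The ratio therefore rests largely on proteins whose place in the complex was not tested. RAPTOR held most of the other side, and TOR kinase 9.49% ± 0.89 of it at 3% and 9.92% ± 0.74 at 8%. The SNF4-like gamma-type subunit, described below, was not matched by the rule and is not in these sums. It stood at 28.4 ± 0.612 and 29.2 ± 3.02 CPM per kb. Against the same TOR and RAPTOR level the SnRK1 subunits differed. The log2 ratio of gamma subunits was 1.57 ± 0.108 at 3% and 0.24 ± 0.124 at 8%, that of beta subunits -2.37 ± 0.122 and -2.43 ± 0.160, which overlapped, and that of the catalytic subunit -1.51 ± 0.110 and -1.10 ± 0.221, higher in every 8% library. The ratio of KIN10 to TOR kinase level alone was 4.26, 3.19 and 3.77 at 3% and 4.79, 5.21 and 4.19 at 8%, which overlapped. Within SnRK1, the gamma to alpha ratio was 8.32, 8.19 and 8.87 at 3% and 2.46, 2.32 and 2.83 at 8% sucrose.

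Partners and targets of these kinases were taken as 5 lists of other clusters, with 194 of 274 tested, 42 higher and 62 lower, which is 53.6% called against 54.6% of all tested clusters. The SNF4-like protein, which in Arabidopsis serves as the gamma-type subunit of SnRK1, was not called at 55.1 ± 1.36 CPM at 3% and 62.2 ± 6.55 CPM at 8% (log2 fold change 0.18 ± 0.08, adjusted p = 0.0591). Of the kinases that activate SnRK1 in Arabidopsis, GRIK1 rose from 2.87 ± 1.28 to 6.78 ± 0.905 CPM (adjusted p = 0.00363), and the more abundant GRIK2 was at 36.0 ± 1.27 and 32.3 ± 0.853 CPM (log2 fold change -0.16 ± 0.05, adjusted p = 0.0259). SNF4-like was called higher at 0.53 (adjusted p = 0.000342) with factors recomputed on hits, with library totals (0.00543), with a replicate block (0.0269) and without 8% replicate 1 (0.012). GRIK2 turned to 0.20 (adjusted p = 0.00435) with factors recomputed on hits, and its call was lost with library totals (0.983) and without 8% replicate 1 (0.0661) or 3 (0.0952). Both trehalases with a plant hit rose, the rice-type from 115.4 ± 1.68 to 203.2 ± 7.76 CPM (log2 fold change 0.82 ± 0.05, adjusted p = 5.63e-07) and the Arabidopsis-type from 79.0, 98.9 and 87.8 CPM at 3% to 99.4, 128.6 and 118.7 CPM at 8% (log2 fold change 0.38 ± 0.11, adjusted p = 0.00974). The latter call was lost without 3% replicate 1 (adjusted p = 0.064) or 3% replicate 3 (adjusted p = 0.0719). Its main cluster, Cluster-2051.73465, was called at 0.0373 and missed the threshold in 4 of 6 fits leaving out a library (adjusted p = 0.0987 to 0.183), with median-of-ratios factors (0.0755) and with no filter (0.0577).

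Of 14 tested hits of TOR partners and effectors, 4 were higher and 6 lower, near the 29.8% and 50.2% of all hits, or 7 and 5 with factors recomputed on hits. ATG1c was lower at -0.23 (adjusted p = 0.00739) and turned to 0.13 (adjusted p = 0.0976) with those factors, and ATG1a, ATG13a and MAF1, not called otherwise, were higher at 0.30, 0.45 and 0.47 (adjusted p = 0.00405, 0.00214 and 0.000797). S6 kinase AtPK2/AtPK19, which TOR phosphorylates, fell in sum from 325.2 ± 14.5 to 165.5 ± 12.5 CPM (log2 fold change -0.97 ± 0.07, adjusted p = 1.15e-06). Its main cluster, Cluster-2051.77054, fell from 231.3 ± 12.3 to 53.75 ± 1.53 CPM. It held 71.1% of the counts of the hit at 3% and 32.5% at 8%. By cluster, 5 of this hit were higher and 2 lower, so they did not move as 1 unit. The scarcer AtPK1/AtPK6 rose from 2.02 ± 0.188 to 9.81 ± 1.25 CPM (log2 fold change 2.28 ± 0.15, adjusted p = 8.72e-07). Ribosomal protein S6, the target of S6 kinase, fell from 311.9 ± 6.21 to 107.0 ± 3.1 CPM (log2 fold change -1.54 ± 0.05, adjusted p = 9.38e-09). LST8, the third protein of the TOR complex, fell from 27.7 ± 1.03 to 19.3 ± 1.25 CPM (log2 fold change -0.52 ± 0.07, adjusted p = 0.000109).

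The list of genes tied in Arabidopsis to sugar starvation or SnRK1 activity, which includes bZIP transcription factors, was mostly lower at 8% sucrose. Whether each of these transcripts rises with starvation was not tested. Of 16 tested hits 13 were lower, none was higher and 3 were not called, against 50.2% lower among all hits. With factors recomputed on hits 11 were lower, against 39.7% of all hits, and 2 were higher, bZIP44 at 0.25 (adjusted p = 0.002) and bZIP53 at 0.35 (adjusted p = 0.0139). The alpha subunits of 2-oxoisovalerate dehydrogenase, at -0.43 and -0.61, were then not called, at -0.08 (adjusted p = 0.531) and -0.26 (adjusted p = 0.14). Of 58 tested clusters 27 were lower and 8 higher, against 25.6% and 29.1% of all tested clusters. Asparagine synthetase fell from 146.7 ± 6.99 to 55.5 ± 4.79 CPM in its rice-type hit (log2 fold change -1.40 ± 0.07, adjusted p = 1.69e-07). The transcription factor bZIP2 fell from 4.97 ± 1.17 to 0.368 ± 0.0621 CPM (log2 fold change -3.74 ± 0.28, adjusted p = 1.98e-06), while bZIP11, bZIP44 and bZIP53 were not called with the main scaling; bZIP11 was at -0.29, and at 0.05 (adjusted p = 0.864) with factors recomputed on hits. Isovaleryl-CoA dehydrogenase, an enzyme of leucine breakdown, fell in both its hits, by 2.33 and by 1.07 on the log2 scale.

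Of the enzymes that SnRK1 phosphorylates, 7 of 9 tested hits were lower and 1 was higher, against 50.2% and 29.8% of all hits. With factors recomputed on hits 6 were lower, against 39.7%, and 1 was higher, against 39.9%. These hits are not separate enzymes, since several are HMG-CoA reductase and several sucrose-phosphate synthase. The HMG-CoA reductase hits called lower were at -1.55 ± 0.08, -1.66 ± 0.10 and -1.35 ± 0.07 on the log2 scale. A scarce further hit, at -1.82 ± 0.77, was not called (adjusted p = 0.0541). Nitrate reductase held 397.6, 477.3 and 448.6 CPM at 3% sucrose and 29.2, 25.8 and 22.0 CPM at 8%, with a log2 fold change of -4.11 ± 0.12 (adjusted p = 5.09e-09). The main sucrose-phosphate synthase hit was at 721 ± 32.8 and 612.1 ± 33.5 CPM (log2 fold change -0.24 ± 0.06, adjusted p = 0.00433), and moved to 0.12 (adjusted p = 0.0536) with factors recomputed on hits and to -0.08 (adjusted p = 0.175) with library totals. F2KP, the enzyme that makes and breaks down fructose 2,6-bisphosphate, fell from 81.8 ± 3.53 to 45.6 ± 2.72 CPM (log2 fold change -0.84 ± 0.06, adjusted p = 1.56e-06).

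**Figure D5:**
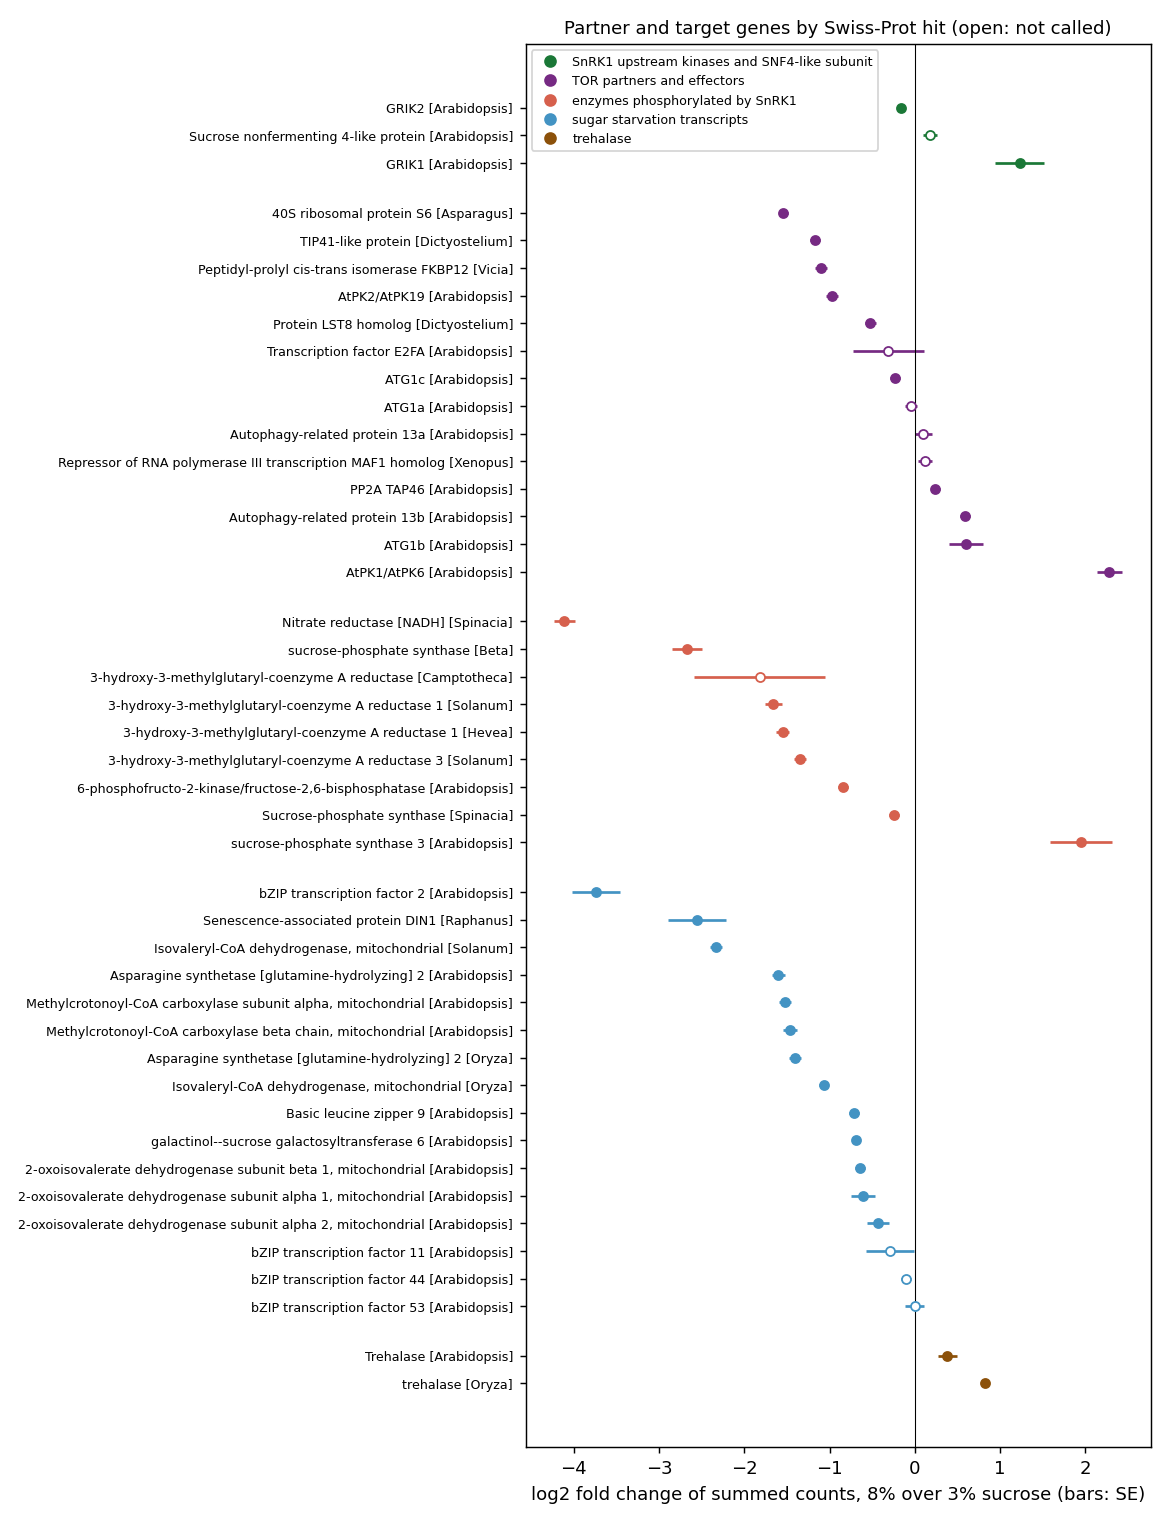
Log2 fold change of 8% over 3% sucrose for every tested hit of the 5 lists, with the SE as a bar and the genus of the hit in brackets; filled points were called and open points were not. Of the 16 sugar starvation hits 13 lie to the left as called and none to the right with the main scaling, while TOR partners lie on both sides.

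The authors' deposited calls can be set beside these for the member clusters. Of the 32 clusters called higher here, 28 were marked up in the authors' deposited table, and of the 25 called lower 22 were marked down there. None was marked in the opposite direction, and among the tested members not called here the authors' deposited table marked 3 up and 3 down. Of the 55 members that were not tested here, the authors' deposited table marked 3 up and 3 down.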

How the data were processed

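RNA was sequenced from 6 libraries of suspension cells, grouped by the medium in the labels, 3 with 3% and 3 with 8% sucrose. Per the labels' protocols, poly(A) RNA was made into libraries with the NEBNext Ultra kit, which does not mark strand, so sense and antisense reads look alike, and read from both ends on a NovaSeq machine. The submitters' processing notes name Trimmomatic 0.36, FastQC, RSEM and Bowtie2. Which assembler and which test the authors ran is not given in the sources used here. What the authors deposited, per the file headers, are expected counts (45.4% not whole, beyond a tolerance of 1e-09) and FPKM per cluster and library, a log2 ratio of the media, p-values and q-values, and best hits with scores, E-values and lengths as other values.

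Counts were rounded, filtered with filterByExpr, which left 85038 clusters, scaled with TMM factors (0.935 to 1.07) and tested with the quasi-likelihood test of edgeR 4.0.16 in R 4.3.3, with no covariate and Benjamini-Hochberg adjustment at 0.05, after the script was tested on simulated data. SEs were derived from each log2 fold change and its F statistic. Counts summed by hit were tested with the scaling of the cluster fit. A count of 0 allows up to 3 counts, on average 0.083 CPM at 3% and 0.0791 CPM at 8% sucrose. Replicates differed by more than sampling noise (chi-square per cluster 8.05 to 15.2) and each counts as its own sample. Alternatives were other size factors, library totals, DESeq2 1.42.0, no filter, a replicate block, leaving out each library, a 2-fold minimum, an E-value limit of 1e-50, FPKM, CPM with no length and factors recomputed on hits.

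The members, the lists and the tests were chosen with earlier results of these data known. Clusters were named by a rule: in each class the 4 most abundant tested clusters and the called cluster with the smallest adjusted p in each direction. Named beyond it, after their values were seen, were the hits of the partner lists, further clusters of a hit described for it, and the ratios of subclasses. Figures were drawn with matplotlib 3.10.9.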

Additional observations from a re-analysis of the deposited data

How the results depend on the processing

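Of 24 tested member hits, KIN10, TOR, the RAPTOR hits, TPP A and TPP J changed call or direction under an alternative, and the cause was not tested. The called hit that lost its direction was RAPTOR1, at 0.00 with library totals and 0.20 with factors recomputed on hits, an alternative chosen after seeing the data. Of hits not called, those factors turned TOR to 0.16, rice-type RAPTOR1 to 0.14 and TPP A to 0.34; library totals moved the median of all tested clusters from 0.19 to 0.35. Leaving out 1 library gave 7 to 8 higher and 5 to 6 lower synthase clusters, 12 to 20 and 1 to 2 phosphatase clusters, 2 to 4 and 12 to 16 SnRK1 clusters, and 6 to 7 and 3 to 5 TOR and RAPTOR clusters. It gave 33 to 42 higher and 57 to 62 lower partner clusters, 9 to 10 higher and 8 to 9 lower member hits, and 20993 to 24004 higher and 20126 to 21158 lower clusters overall. The SnRK1 count of 2 came without 3% replicate 1 or replicate 2, and the phosphatase count of 1 without 8% replicate 1. The synthase to phosphatase log2 difference then ranged from -1.95 to -1.75, and that of SnRK1 to TOR with RAPTOR from -1.01 to -0.88.

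Summing by hit gave 4 higher and 2 lower synthases, 4 and 0 phosphatases, 1 and 5 SnRK1 subunits and 0 and 1 TOR or RAPTOR, since there are fewer hits than clusters. A 2-fold minimum left 0 lower phosphatase, 2 higher SnRK1 and 1 lower TOR and RAPTOR cluster. The E-value limit left 9 higher phosphatase, 1 higher SnRK1 and 2 lower TOR and RAPTOR clusters, and library totals also 2 of the last. The ratio difference for synthase to phosphatase was -1.65 from CPM without length. For SnRK1 to TOR with RAPTOR it was -1.18 from CPM without length, -0.76 from FPKM and -1.12 under the E-value limit. All were in the same direction.

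The labels do not say whether the replicate numbers pair the libraries. The correlation of deviations was 0.031, 0.004 and 0.013 between same-numbered libraries, and -0.037 to 0.025 between the others. With 3 libraries in each medium these values cannot settle it. With the replicate number as a block, 1 phosphatase and 2 TOR and RAPTOR clusters were lower. The block also called TPP J higher, at 1.99 on the log2 scale (adjusted p = 0.0136). Depth limits the 55 members that were not tested, with at most 95 counts each.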
